A study of Homo sapiens with 6 samples.

Results

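Genes for 10 secreted inflammatory proteins were followed in T24 cells after knockdown of USP43, a deubiquitinating enzyme: the CXC chemokines CXCL1, CXCL2, CXCL3, CXCL5 and CXCL8, the CC chemokine CCL20, and the cytokines IL6, LIF, IL1A and IL1B. They were listed by gene symbol, chosen with earlier results of these data known, and are 10 of the 63241 genes in the deposited table. A filter on low values left 11417 genes to test, and all 10 members passed it. T24 is an established human bladder cancer line, grown here in RPMI 1640 with fetal bovine serum. Control cells, labelled WT, were transfected with a non-targeting small interfering RNA (siNC), and the others, labelled USP43 knockdown, with an RNA against USP43 (siUSP43). Each group had 3 libraries, and all 6 carried the same batch label. The sources used here do not give the time after transfection, the duplex sequences or whether the replicates were separate cultures, so p-values measure the spread between these libraries, which may be technical. The series concerns lipid metabolism and gemcitabine resistance, and the labels name no cytokine or drug added to the cells.

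CXC chemokines with a Glu-Leu-Arg motif bind CXCR1 and CXCR2 and draw neutrophils into tissue, and CCL20 draws CCR6-bearing lymphocytes and dendritic cells. IL1A and IL1B both act on the IL-1 receptor and, through NF-kB, induce many of the other genes described here, while IL6 and LIF signal through the shared receptor chain gp130 to STAT3. Transcription of these genes is classically driven by NF-kB, AP-1 and C/EBP factors. Their mRNAs are short-lived because AU-rich elements in the 3' UTR bind decay factors.

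The promoters were searched for letters bound by NF-kB, AP-1 and C/EBP, and the stretches around the NF-kB match are shown because most of the genes share it. Promoter sequences (RefSeq, GRCh38.p14, 250 bases before to 50 after each start) were found for 9 of the 10 genes, with LIF not matched. NF-kB was searched as GGNNTTTCC on both strands, AP-1 as TGANTCA, C/EBP as TTGCNNAA and the TATA box as TATAAA. An NF-kB match lay in 7 of the 9 genes, against 6.26% of all 35116 promoters and 6.95% of those of tested genes. Capitals mark the match, sequences run 5' to 3' on the gene's strand, and each line gives the gene and its sequence.
CXCL8: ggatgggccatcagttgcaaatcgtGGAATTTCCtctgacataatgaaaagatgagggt
CXCL1: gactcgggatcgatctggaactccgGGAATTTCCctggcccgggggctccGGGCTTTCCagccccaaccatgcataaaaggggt
CXCL2: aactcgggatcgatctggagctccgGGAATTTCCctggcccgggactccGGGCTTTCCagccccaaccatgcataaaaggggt
CXCL3: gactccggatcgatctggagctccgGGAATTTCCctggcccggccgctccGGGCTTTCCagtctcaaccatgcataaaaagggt
CXCL5: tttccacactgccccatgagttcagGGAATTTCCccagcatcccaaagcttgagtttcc
IL6: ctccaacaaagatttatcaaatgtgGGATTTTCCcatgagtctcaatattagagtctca
CCL20: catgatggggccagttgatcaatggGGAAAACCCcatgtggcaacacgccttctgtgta

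The first match began shortly before the RefSeq start in these genes (at -91 in CXCL8, -78 in CXCL1 and CXCL3, -77 in CXCL2, -90 in CXCL5, -79 in CCL20 and -72 in IL6). The stretches are chr4:73740453-73740511 (plus strand) for CXCL8, chr4:73869290-73869373 (plus) for CXCL1, chr4:74099215-74099297 (minus) for CXCL2, chr4:74038709-74038792 (minus) for CXCL3 and chr4:73998734-73998792 (minus) for CXCL5. That of IL6 is chr7:22727103-22727161 (plus) and that of CCL20 chr2:227813738-227813796 (plus). CXCL1, CXCL2 and CXCL3 shared a second match at -53 and long stretches of their promoters, so they are related copies and not separate observations. IL1A and IL1B had no match to these letters in this window. At the upstream of its 2 listed starts IL1A had an AP-1 match at -12 and another after the start, of which the first is shown because IL1A was the member that rose (chr2:112784494-112784530, minus strand).
IL1A: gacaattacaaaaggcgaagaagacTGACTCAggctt
AP-1 matches lay in 2 of the 9 genes (IL1A and CXCL8, the latter at -137), against 7.71% of all promoters and 5.03% of those of tested genes. C/EBP matches lay in 3, against 10.5% and 7.16%, and TATA matches in 3, against 11.5% and 5.78%. No match of one motif overlapped a match of another. These are letter matches, not measured binding.

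Libraries held 21430574 to 25577200 gene counts and the members at least 76 counts in every library. USP43 checks the labels: its FPKM (fragment counts scaled for exon length and library depth) was 2.36, 2.09 and 2.08 in siNC and 1.02, 0.67 and 0.80 in siUSP43, so the groups did not overlap. Its log2 fold change was -1.40 (SE 0.14; edgeR, Benjamini-Hochberg adjusted p = 5.63e-06). The keratins KRT7, KRT8 and KRT18 stood at 86.2 to 240.3 FPKM in all 6 libraries. Of the 6 epithelial and urothelial markers tested 3 fell and 1 rose, where 28.1% of all tested genes fell and 28.0% rose. The urothelial and luminal factor FOXA1 was at 6.67 ± 0.334 FPKM in siNC and 2.85 ± 0.313 in siUSP43 (SD, n = 3 each). With a log2 fold change of -1.24 it lay below every member but CCL20 (edgeR, Benjamini-Hochberg adjusted p = 2.42e-07). KRT7 and KRT19 each had a log2 fold change of -0.38 and the nuclear receptor PPARG one of 0.50 (edgeR, Benjamini-Hochberg adjusted p = 2.50e-05, 4.29e-04 and 8.90e-05). KRT8 and KRT18, at 0.12 and 0.11, did not pass (edgeR, Benjamini-Hochberg adjusted p = 0.0518 and 0.169). KRT8 was nevertheless higher without overlap and passed under some alternatives, such as DESeq2 (Benjamini-Hochberg adjusted p = 0.0429). EPCAM, under the filter, was at 0.48 to 0.73 FPKM in siNC and 1.18 to 1.30 in siUSP43. What part these markers had in the members' changes was not tested. Of the 14 epithelial and urothelial markers 7 were under 1 FPKM in every library. Among them were KRT5 at 0 counts and GATA3 at 0.40 to 0.46 FPKM in siNC and 0.21 to 0.30 in siUSP43. In bulk RNA fewer cells making a transcript and less of it per cell cannot be told apart.

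All 10 genes passed the test, 9 lower and 1 higher in siUSP43 (edgeR quasi-likelihood test, Benjamini-Hochberg adjusted p under 0.05 over all tested genes). The background is high: 56.1% of the tested genes passed, 28.1% lower and 28.0% higher. The members were chosen with earlier results of these data known, so their contrast with this background is a description. The median log2 fold change of the members was -0.56, against -0.01 over all tested genes and -0.40 over the genes that fell. FPKM of the groups did not overlap for any of the 10 genes, which was also so for 62.2% of tested genes. For 9 members siUSP43 lay lower without overlap (29.6% of tested genes) and for 1 higher (32.5%). Together the members took 0.234 to 0.244% of gene counts in siNC and 0.165 to 0.169% in siUSP43. For each member an exact permutation test (two-sided, 3 libraries against 3) gave p = 0.1, the smallest it allows.

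**Figure D1:**
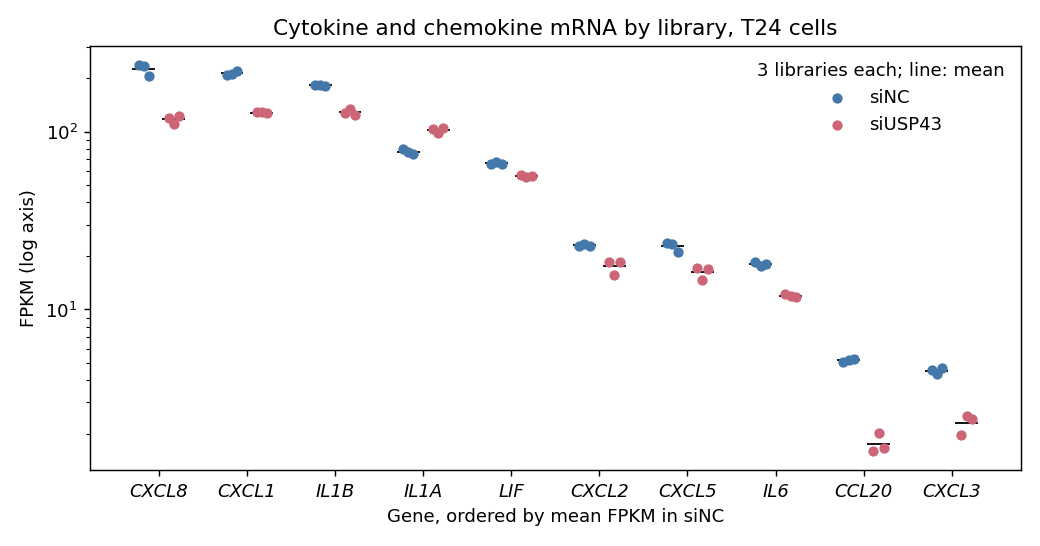
FPKM of the 10 cytokine and chemokine genes in each library (log axis), with 3 siNC and 3 siUSP43 libraries per gene and a line at each group's mean. In 9 genes every siUSP43 library lies below every siNC library, and in IL1A every one lies above.

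CXCL8, the interleukin-8 neutrophil attractant, had the highest mean level of the members in control cells, with a range that overlapped that of CXCL1. It stood at 236.6, 233.3 and 206.6 FPKM in siNC and at 119.1, 110.8 and 123.1 in siUSP43. The lowest control library, siNC replicate 3, was still far above every siUSP43 library. The group means of 225.5 ± 16.4 and 117.7 ± 6.29 FPKM (SD, n = 3 each) gave a log2 fold change of -0.95 (SE 0.06; edgeR, Benjamini-Hochberg adjusted p = 1.18e-07), a level 1.94 times higher in siNC. Only 2.84% of tested genes had a lower fold change. CXCL8 (ENSG00000169429) lies at chr4:73740519-73743716 on the plus strand.

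CXCL1, first described as a melanoma growth factor and a ligand of CXCR2, was almost as abundant. It measured 209.7, 211.1 and 220.1 FPKM in siNC and 128.3, 128.7 and 127.1 in siUSP43. The siUSP43 libraries lay close together and all far below the controls. The log2 fold change was -0.76 (SE 0.04; edgeR, Benjamini-Hochberg adjusted p = 8.12e-08), with means of 213.6 ± 5.67 and 128.0 ± 0.816 FPKM (SD, n = 3 each). CXCL1 (ENSG00000163739) lies at chr4:73869393-73871308 on the plus strand.

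CXCL3, also a ligand of CXCR2 and the least abundant member in control cells, read 4.56, 4.32 and 4.66 FPKM in siNC. In siUSP43 it read 1.96, 2.51 and 2.43 FPKM. These rest on 130 to 303 counts per library, and the highest siUSP43 library was well under the lowest control. The log2 fold change was -0.99 (SE 0.12; edgeR, Benjamini-Hochberg adjusted p = 2.10e-05). CXCL3 (ENSG00000163734) lies at chr4:74036589-74038807 on the minus strand.

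CXCL2 and CXCL5, also neutrophil attractants that bind CXCR2, fell less. CXCL2 was at 22.85, 23.43 and 22.84 FPKM in siNC and 18.39, 15.70 and 18.38 in siUSP43, a log2 fold change of -0.41 (SE 0.07; edgeR, Benjamini-Hochberg adjusted p = 3.71e-04). CXCL5 was at 23.65, 23.49 and 21.01 FPKM in siNC and 17.11, 14.72 and 16.93 in siUSP43, a log2 fold change of -0.50 (SE 0.07; edgeR, Benjamini-Hochberg adjusted p = 9.60e-05). In both genes siUSP43 replicate 2 was the lowest library and the groups stood apart. CXCL2 (ENSG00000081041) lies at chr4:74097040-74099196 and CXCL5 (ENSG00000163735) at chr4:73995642-73998677, both on the minus strand. CXCL5 overlaps an unnamed gene on the other strand that had 18 to 27 counts per library.

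CXCL1, CXCL2 and CXCL3 are close copies, which bears on how reads were assigned. In GENCODE release 29 transcripts their coding sequences of 324 bases were 93.5% (CXCL1 and CXCL2), 90.7% (CXCL1 and CXCL3) and 94.4% (CXCL2 and CXCL3) identical. The longest run of bases shared by their transcripts was 77, 55 and 97 bases for the same pairs, while none of the 3 shared a run longer than 18 bases with CXCL5, CXCL6 or CXCL8. CXCL5 and CXCL6 were also alike, with coding sequences 87.5% identical and a longest shared run of 45 bases. The sources used here do not say how multiply mapped reads were treated. The division of reads among CXCL1, CXCL2 and CXCL3, and between CXCL5 and CXCL6, is therefore uncertain. The summed counts of CXCL1, CXCL2 and CXCL3 do not depend on the division among them unless such reads were discarded or counted more than once. The sums were 389.4, 392.0 and 407.3 CPM (counts scaled to library totals) in siNC and 242.3, 239.4 and 241.4 in siUSP43. That is a log2 ratio of -0.72 for the 3 genes together, with the groups well apart (exact two-sided permutation p = 0.1, the smallest possible for 3 against 3). Most of the summed counts were CXCL1, with 8164 in siNC replicate 1 beside 913 for CXCL2 and 289 for CXCL3. The sum therefore says little about CXCL2 or CXCL3 alone.

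The proportions of the CXC ligands were compared within libraries, and no ratio passed its test. Relative to CXCL8 in the same library, CXCL5 stood at 0.1, 0.101 and 0.102 in siNC and at 0.144, 0.133 and 0.138 in siUSP43, 1.37 times higher. CXCL2 stood at 0.0966, 0.1 and 0.111 of CXCL8 in siNC and at 0.154, 0.142 and 0.149 in siUSP43, 1.45 times higher. For both ratios the groups did not overlap. CXCL1 over CXCL8 was 1.15 times higher and CXCL3 over CXCL8 0.971 times that of siNC, and in both of these the groups overlapped. Exact two-sided permutation p-values were 0.1, 0.1, 0.2 and 1.0 for CXCL5, CXCL2, CXCL1 and CXCL3 (Benjamini-Hochberg adjusted over 4 ratios 0.2, 0.2, 0.267 and 1.0), and 3 against 3 could not have passed. The CXCL3 ratio changed sign without siNC replicate 3 or without siUSP43 replicate 1.

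**Figure D2:**
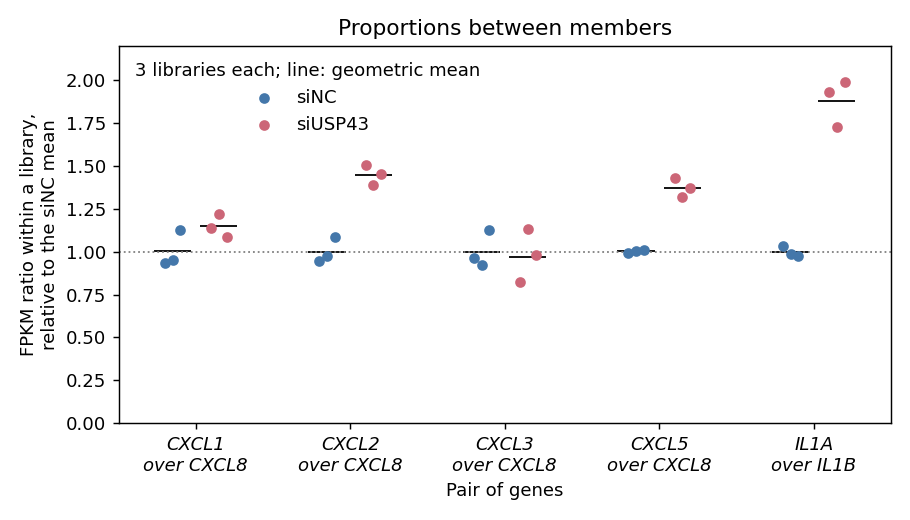
Ratio of FPKM between pairs of members within each library, divided by the siNC geometric mean, for 3 libraries per group with a line at the geometric mean. The siUSP43 points of CXCL2 and CXCL5 over CXCL8 lie above all siNC points, those of CXCL1 and CXCL3 overlap them, and IL1A over IL1B is 1.88 times higher.

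All 5 CXC members sit in a stretch of 359 kb on chromosome 4, from CXCL8 at one end to CXCL2 at the other, in which the table lists 20 genes. Of these 6 were tested, the 5 members and CXCL6, another CXCR1 and CXCR2 ligand. The other 14 had at most 27 counts in any library, among them the platelet chemokines PF4 and PPBP. CXCL6 fell with its neighbours, from 8.95 ± 0.655 to 4.96 ± 0.321 FPKM (SD, n = 3 each), with a log2 fold change of -0.87 (SE 0.09; edgeR, Benjamini-Hochberg adjusted p = 5.79e-06). From CXCL8 at -0.95 the log2 fold change came nearer to 0 at each next tested gene, through CXCL6 at -0.87, CXCL1 at -0.76 and CXCL5 at -0.50 to CXCL2 at -0.41, except for CXCL3, which at -0.99 lies between CXCL5 and CXCL2. This order was seen in the values and was not tested. Some steps were about as small as the SE, which was 0.06 for CXCL8, 0.09 for CXCL6 and 0.07 for both CXCL5 and CXCL2.

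**Figure D3:**
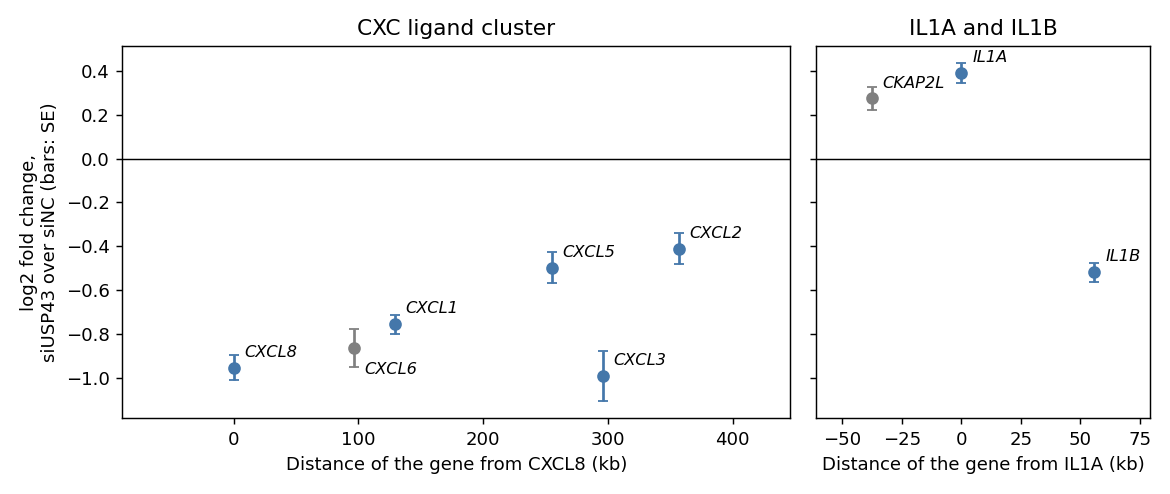
Log2 fold change (siUSP43 over siNC, bars SE) against the distance in kb from CXCL8 (left) or IL1A (right), measured between the lower coordinates of the genes, with members in blue and other tested genes in grey. The 6 tested genes of the CXC cluster all lie below 0, with CXCL3 below the order of the other 5, while IL1A lies above 0 and IL1B below.

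CCL20, the ligand of CCR6, had the largest fall of the 10. It read 5.09, 5.18 and 5.27 FPKM in siNC and 1.60, 2.01 and 1.66 in siUSP43, from 232 to 246 and from 76 to 81 counts. Every siUSP43 library was far below every control. The log2 fold change was -1.58 (SE 0.12; edgeR, Benjamini-Hochberg adjusted p = 9.48e-07), 3.00 times higher in siNC, and only 53 of the 11417 tested genes fell further. CCL20 (ENSG00000115009) lies at chr2:227805739-227817564 on the plus strand, and the RefSeq start used above is inside that interval.

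IL6, the main inducer of the acute-phase response, fell with no overlap between the groups. It stood at 18.52, 17.49 and 17.95 FPKM in siNC and 12.21, 11.83 and 11.82 in siUSP43. The log2 fold change was -0.61 (SE 0.05; edgeR, Benjamini-Hochberg adjusted p = 1.30e-06). IL6 (ENSG00000136244, chr7:22725884-22732002, plus strand) overlaps IL6-AS1 and STEAP1B on the other strand. Those had 29 to 47 and 173 to 193 counts per library, against at least 1293 for IL6, and the sources used here do not say whether counting used strand.

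LIF, a cytokine of the same family that keeps stem cells undifferentiated and is made by many tumours, moved least. Its FPKM was 65.90, 67.67 and 65.64 in siNC and 57.39, 55.63 and 56.30 in siUSP43. The spread inside each group was small, and the groups stood apart. The log2 fold change was -0.25 (SE 0.04; edgeR, Benjamini-Hochberg adjusted p = 2.45e-04), smaller in size than the median of genes that fell. LIF (ENSG00000128342) lies at chr22:30240453-30246759 on the minus strand and overlaps LIF-AS1 (4 to 12 counts) and LIF-AS2 (42 to 123 counts) on the other.

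The IL-1 genes moved in opposite directions. IL1B, the secreted form that is cut by caspase-1, read 182.9, 184.3 and 181.2 FPKM in siNC and 127.8, 134.5 and 124.9 in siUSP43. IL1B fell by 0.52 on the log2 scale (SE 0.04; edgeR, Benjamini-Hochberg adjusted p = 1.48e-06). IL1A, the form that is active as a precursor and acts as an alarm signal from damaged epithelium, read 79.94, 76.97 and 74.87 FPKM in siNC and 104.2, 98.22 and 105.0 in siUSP43. The log2 fold change of IL1A was 0.39 (SE 0.05; edgeR, Benjamini-Hochberg adjusted p = 2.04e-05), with every siUSP43 library above every control.

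IL1A and IL1B are neighbours, with 45.3 kb between them on chromosome 2 (IL1A, ENSG00000115008, chr2:112773925-112784493, and IL1B, ENSG00000125538, chr2:112829751-112836816, both minus strand). IL1A over IL1B within a library was 0.437, 0.418 and 0.413 in siNC and 0.815, 0.730 and 0.841 in siUSP43. The ratio was thus 1.88 times higher with no overlap (exact two-sided permutation p = 0.1, the smallest possible; the pair was chosen after its values were seen). On the other side of IL1A, CKAP2L, which encodes a spindle protein, had a log2 fold change of 0.27 (SE 0.05; edgeR, Benjamini-Hochberg adjusted p = 8.11e-04). IL1RN, the natural receptor antagonist, had at most 2 counts in any library.

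**Figure D4:**
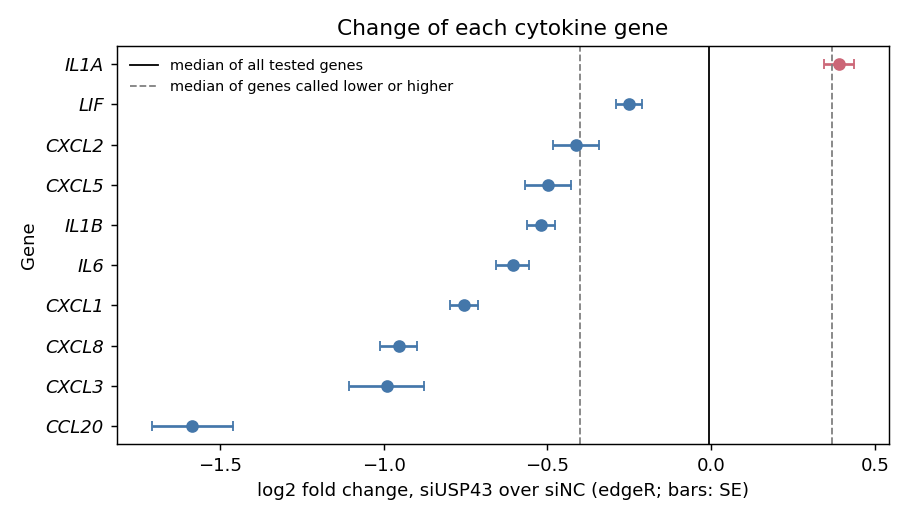
Log2 fold change of each member (siUSP43 over siNC, bars SE), with the median of all tested genes as a solid line and the medians of genes called lower and higher as dashed lines. LIF is the member that fell less than the median of the genes that fell, CCL20 lies farthest out at -1.58, and IL1A is at 0.39.

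Levels per exon length put the members in an order that changed at its top. In siNC CXCL8 and CXCL1 came first with overlapping ranges, followed by IL1B, IL1A and LIF, each apart from the next. CXCL2 and CXCL5 overlapped, and IL6, CCL20 and CXCL3 followed, each apart. In siUSP43 IL1B and CXCL1 led with overlapping ranges, with CXCL8 and then IL1A after them, the latter at 98.22 to 105.0 FPKM. CXCL2 and CXCL5 overlapped again, and CXCL3 and CCL20 at the bottom overlapped and exchanged places. CXCL8 ranked 105th of all genes by mean FPKM in siNC and 213th in siUSP43.

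Across the 6 libraries, the profiles most like that of CXCL8, by root mean square difference of log2 CPM centred on siNC, were those of KIRREL1, GPR180 and EPS15 (0.0178, 0.0282 and 0.0328). For CCL20 they were P2RX5, PORCN and TBCA (0.0481, 0.0805 and 0.0856). Among the members IL6 and IL1B were the closest (0.0767) and IL1A and CCL20 the farthest apart (1.40). The member nearest to CXCL8 was CXCL3 (0.161). With profiles centred on siNC, genes with a like fold change come out near: KIRREL1, GPR180 and EPS15 had -0.95, -0.93 and -0.95. Shared regulation was not tested.

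The density of the AU-rich pentamer ATTTA in the 3' UTR was high in most members. In 9 of them it exceeded that of at least 87.2% of tested genes (IL1A), while LIF, above 57.8%, was near the median. In the GENCODE release 29 transcript with the longest 3' UTR, all 10 members had more ATTTA per kb than the median tested gene (1.77 per kb), from 2.18 in LIF and 4.34 in IL1A to 13.9 in CXCL2, with IL6 just above CXCL2. The longer element TATTTAT was in 10 of 10 members and in 36.0% of the 10031 tested genes whose 3' UTR had 50 bases or more. It was in 32.2% of genes that fell and 41.8% of genes that rose, whose median 3' UTR lengths were 1233 and 1643 bases. These shares were not adjusted for length. By number of pentamers the members exceeded from 52.1% (CCL20) to 87.0% (CXCL5) of these genes. The 30 bases holding the most pentamers had 1 in CCL20 and 2 in IL6, CXCL3 and CXCL5. They are shown for CXCL2, CXCL8 and IL1B, which fell, and IL1A, which rose, with their 3 to 5 pentamers in capitals.
CXCL2: aagtcttctATTTATTTATTTATTTATTTA
CXCL8: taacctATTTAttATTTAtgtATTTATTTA
IL1B: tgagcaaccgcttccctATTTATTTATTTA
IL1A: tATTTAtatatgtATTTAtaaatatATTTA

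A second 3' UTR element had been picked from the fold changes of these same libraries, the 7-mers GGATCCA and GATCCAA, so its presence is given as a description. It was in 2 of the 10 members, CXCL8 and CXCL1, with 1 site each, against 10.6% of all tested genes with a 3' UTR, 16.2% of those that fell and 8.08% of those that rose. Its part in the result was not tested. The sites are shown in capitals with their surroundings.
CXCL8: tctgctagccaGGATCCAcaagtccttgtt
CXCL1: tagaggctggcGGATCCAAgcaaatggcca

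Other ligands of the same families were mostly silent in these cells. Of 24 further chemokine ligands only CXCL6 and CXCL16 reached the filter of 1 FPKM, and both fell. CXCL16, a membrane-bound chemokine, went from 3.70 ± 0.0964 to 2.12 ± 0.340 FPKM (SD, n = 3 each; log2 fold change -0.83; edgeR, Benjamini-Hochberg adjusted p = 1.07e-04). Of 27 further cytokines 11 were tested, of which 4 fell, 2 rose and 5 did not pass. Their median log2 fold change was -0.14. Over all tested genes 28.1% fell and 28.0% rose.

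The colony-stimulating factors, which drive formation of granulocytes and macrophages, split. CSF2 fell from 63.5 ± 2.35 to 34.1 ± 3.18 FPKM and CSF1 from 10.5 ± 0.552 to 5.45 ± 0.416 (SD, n = 3 each), with log2 fold changes of -0.91 and -0.96 (edgeR, Benjamini-Hochberg adjusted p = 9.32e-07 and 5.05e-07). CSF3, named after its value was seen, rose from 110.2 ± 2.89 to 132.5 ± 8.52 FPKM (log2 fold change 0.25; edgeR, Benjamini-Hochberg adjusted p = 0.00173). The other cytokine that rose, also named after the fact, was IL18, an IL-1 family member, at 0.31 (edgeR, Benjamini-Hochberg adjusted p = 4.15e-04).

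EBI3, a subunit of IL-27 and IL-35, and TNF, the classical inducer of NF-kB, fell by 1.26 and 0.31 on the log2 scale (edgeR, Benjamini-Hochberg adjusted p = 5.73e-05 and 0.00352). IL11 and CLCF1, of the IL-6 family as LIF is, had log2 fold changes of -0.16 and -0.02 and did not pass. The value of IL11 rested on single libraries: without siNC replicate 1 it was -0.25 and passed (edgeR, Benjamini-Hochberg adjusted p = 0.0361), and without siNC replicate 2 it was -0.09.

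The chemokine receptors were at or near 0, while chains of the IL-6, LIF and IL-1 receptors were measured. CXCR1 and CCR6 were listed at 0 FPKM in all 6 libraries, and CXCR2 was at 0.02 FPKM in 1 and 0 in the others. Of 10 receptor genes 3 were tested. IL1RAP, the accessory chain that IL-1 signalling needs, rose from 3.45 ± 0.285 to 6.57 ± 0.547 FPKM (SD, n = 3 each; log2 fold change 0.92; edgeR, Benjamini-Hochberg adjusted p = 1.20e-06). LIFR, the LIF-binding chain, fell from 1.46 ± 0.0872 to 0.727 ± 0.122 FPKM (log2 fold change -1.02; edgeR, Benjamini-Hochberg adjusted p = 1.10e-05).

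IL6ST, which encodes gp130, had overlapping groups at 18.68 to 21.28 and 20.93 to 27.69 FPKM. Its log2 fold change of 0.22 just passed (edgeR, Benjamini-Hochberg adjusted p = 0.0475), and the call ended in 12 of 18 alternatives (adjusted p = 8.71e-05 to 0.160 over all 18). The fold change was 0.10 without siUSP43 replicate 3 and 0.30 without siUSP43 replicate 2, and 0.16 to 0.25 under the other 16. The ligand-binding chains IL1R1 and IL6R were under the filter. IL1R1 went from 0.857 ± 0.0586 to 0.480 ± 0.0300 FPKM and IL6R from 0.570 ± 0.0265 to 1.03 ± 0.260 (SD, n = 3 each). With edgeR's own low-count filter both passed, at -0.85 and 0.86 (edgeR, Benjamini-Hochberg adjusted p = 6.41e-05 and 5.39e-04).

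Of 24 tested genes from the IL-1 receptor to NF-kB 11 fell, 4 rose and 9 did not pass. Over all tested genes 28.1% fell and 28.0% rose. The list's median log2 fold change was -0.18, against -0.56 for the members and -0.01 for all tested genes. The 4 largest changes were falls: IKBKB, the kinase that releases NF-kB, at -0.72, BCL3, an atypical nuclear inhibitor protein, at -0.70, NFKBIA, the inhibitor and target of NF-kB, at -0.59, and NFKBIE, a related inhibitor, at -0.57 (edgeR, Benjamini-Hochberg adjusted p = 5.04e-07 to 1.91e-04). Of 9 genes from gp130 to STAT3 4 fell and 2 rose (median -0.15), beside the shares over all tested genes given above. SOCS3, a STAT3 target that blocks gp130, fell from 17.8 ± 0.728 to 10.9 ± 0.940 FPKM (SD, n = 3 each), by 0.72 on the log2 scale. PTPN11, the SHP2 phosphatase, was at 0.72, TYK2 at -0.42 and JAK1 at -0.34, and all 4 passed (edgeR, Benjamini-Hochberg adjusted p = 6.61e-06 to 8.01e-05).

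Of 8 tested C/EBP and AP-1 factors 5 fell and 3 rose (median -0.26), against 28.1% lower and 28.0% higher over all tested genes. FOSL1, an AP-1 subunit abundant in invasive carcinoma cells, fell from 210.6 ± 9.84 to 100.6 ± 6.21 FPKM and CEBPB, a C/EBP factor of cytokine promoters, from 59.3 ± 1.04 to 30.2 ± 5.98 (SD, n = 3 each). Their log2 fold changes were -1.08 and -0.99 (edgeR, Benjamini-Hochberg adjusted p = 4.10e-08 and 8.96e-06). JUNB was at -0.65 and the stress factor ATF3, at 1.28 FPKM in siNC, at 1.00.

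Of 13 cytokine mRNA decay factors 4 fell, 3 rose and 6 did not pass (median 0.01), shares near those of all tested genes (28.1% lower and 28.0% higher). ZFP36L2, which binds AU-rich elements, and ZC3H12A, a nuclease that cuts IL6 mRNA, fell by 0.60 and 0.51, CNOT7, a deadenylase subunit, fell by 0.38, and PARN, another deadenylase, rose by 0.46 (edgeR, Benjamini-Hochberg adjusted p = 1.98e-05 to 8.82e-05). Of 7 tested inflammasome and IL-1 processing genes CASP4, an inflammatory caspase, rose by 0.87, PYCARD, the inflammasome adaptor, fell by 0.44 and the sensor NLRP1 fell by 0.40, while 4 did not pass (edgeR, Benjamini-Hochberg adjusted p = 8.51e-08 to 0.00966).

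**Figure D5:**
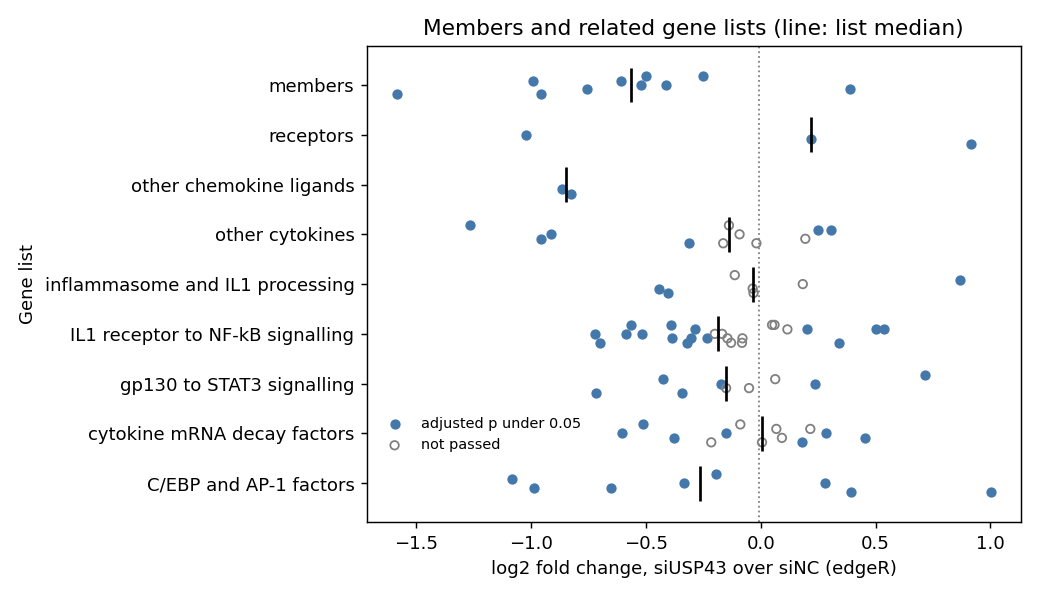
Log2 fold change (siUSP43 over siNC) of the tested genes of each list, filled where the Benjamini-Hochberg adjusted p was under 0.05, with a bar at each list's median and a dotted line at the median of all tested genes. The members have a median of -0.56 with IL1A alone on the right, while the signalling, decay and processing lists hold genes on both sides.

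White blood cells make many of these cytokines in tissue, so their markers were read beside the members. Of 12 leukocyte markers 11 stayed under 1 FPKM in every library, and CD3D, CD3E, MS4A1 and FCGR3A were at 0 counts. PTPRC, the pan-leukocyte antigen, was at 0 FPKM in 5 libraries and 0.01 in siUSP43 replicate 2. The summed level of the 12 was 1.04 to 1.36 FPKM in siNC and 0.56 to 0.68 in siUSP43, most of it CD14, at 0.89 to 1.06 and 0.41 to 0.56 FPKM. The 4 endothelial markers summed to 0.14 to 0.24 FPKM in siNC and 0.07 to 0.11 in siUSP43. The part of these markers in the members' changes was not tested.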

How the data were processed

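RNA sequencing of 6 T24 libraries was used. Per the file headers, the authors deposited raw counts per gene, FPKM and exonic gene size. The submitters' processing notes name cutadapt 2.6, HISAT2 2.2.1 and GRCh38. The counter, annotation release and strand setting are not given in the sources used here. Counts were tested with edgeR 4.0.16 (R 4.3.3), quasi-likelihood, TMM scaling on all-gene totals, group as the only term. Tested were genes whose mean FPKM reached 1, with the members and USP43 kept whatever their level. Calls were two-sided, with Benjamini-Hochberg adjustment over all 11417 tested genes and a threshold of 0.05. SE is the log2 fold change divided by the root of F. The fit was tested on simulated data with an assumed spread, in which far fewer genes changed than here. It recovered 28.8% of 1.2-fold and 91.6% of 1.5-fold changes, and 4.66% of its calls were false. The members and lists were chosen with earlier results of these data known.

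Named were all members, USP43, tested receptors, of each other list all called genes (the 4 largest changes where more than 5), and the 3 genes with profiles nearest to CXCL8 and to the member with the largest change, with exceptions marked in the text. Markers were named above 1 FPKM or where a defining one was at 0. Libraries of a group differed by more than counting noise (chi-square per degree of freedom 2.28 to 15). Alternatives were other scalings, filters, DESeq2 1.42.0, limma 3.58.1, a replicate block and each library left out.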

Additional observations from a re-analysis of the deposited data

How the results depend on the processing

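All 10 members kept their direction and their side of the threshold in all 180 values computed under the 18 alternatives, with adjusted p-values of at most 0.00355. CCL20 ranged from -1.69 to -1.15, CXCL3 from -1.06 to -0.73 and CXCL8 from -1.01 to -0.87, and for these 3 the value nearest 0 came from limma on quantile-normalized log2(FPKM + 1), where the added 1 shrinks low genes such as CCL20 and CXCL3. IL1A ranged from 0.36 to 0.42. Over all genes, a filter at a mean of 5 FPKM tested 6248 genes and called 3788, 1894 higher and 1894 lower, because fewer genes were tested. Leaving out each library in turn gave 5428 to 6548 called genes. With the replicate number as a block 5616 genes and all 10 members were called. No pairing by replicate number was seen: 0 of 6 libraries correlated best with its own number. Same-numbered deviations correlated at -0.009, -0.111 and -0.236. With only 3 centred deviations per group this check is weak, and it does not settle whether libraries were prepared in pairs. Over the left-out libraries the log2 change of the CXCL3 to CXCL8 ratio ran from -0.1531 to 0.07778 (0.04215 without siNC replicate 3 and 0.07778 without siUSP43 replicate 1). That of CLCF1 ran from -0.05883 to 0.03778, the latter without siNC replicate 3. The cause was not tested. Depth limits CCL20 and CXCL3 most, at 76 to 303 counts per library.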

Other observations

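The following neighbours of members, named after their values were seen, both passed the test. LIF-AS2, a transcript on the strand opposite LIF that overlaps its upstream end, had 123, 109 and 94 counts in siNC and 67, 42 and 81 in siUSP43. Its log2 fold change was -0.78 (SE 0.19; edgeR, Benjamini-Hochberg adjusted p = 0.00409), against -0.25 for LIF, and strand use in counting was not stated. DAW1, the next tested gene beyond CCL20 on chromosome 2 and a factor of cilia assembly, rose from 1.16 to 2.32 mean FPKM, with 111, 93 and 91 counts in siNC and 193, 183 and 202 in siUSP43. Its log2 fold change was 0.98 (SE 0.13; edgeR, Benjamini-Hochberg adjusted p = 5.19e-05), while CCL20 fell by 1.58.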
